A study of Mus musculus with 6 samples.

Results

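Chromatin remodelling complexes use the energy of ATP to slide, evict or exchange nucleosomes, and bromodomain proteins read acetylated lysines on histones. Genes of both kinds were followed in MLL-ENL/NrasG12D cells, a mouse leukemia line, after inhibition of the arginine methyltransferase PRMT5. The genes were chosen by symbol alone, as every row named for the BAF (Smarc, Arid, Pbrm1, Dpf and Actl6 genes), ISWI (Smarca, Baz and Bptf), CHD and NuRD (Chd and Mta) or INO80 families or for a numbered Brd gene. This gave 58 of the 11644 genes in the deposited table. Of them, 55 carry these names themselves. They include 6 ARID genes outside BAF and 3 ATPases that act in DNA repair. The remaining 3 share only the name stem: Chd3os and Ino80dos, named as opposite-strand genes of Chd3 and Ino80d, and the pseudogene Smarca5-ps. GENCODE M21 lists Chd3os as protein-coding. Smarca1, Smarcd3, Actl6b and Arid3c, which the same names would cover, had no row in the table and so were not analysed here.

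The treated group was MLL-ENL/NrasG12D cells cultured with EPZ015666, a small molecule that inhibits the catalytic activity of PRMT5, at 5 µM for 72 h, with the compound given again on day 2. The other group was the same cells given an equal concentration of the solvent, DMSO, for the same time. Both groups carry the leukemia drivers, namely MLL, a histone methyltransferase, fused to ENL, a protein of the elongation machinery, and a mutant Nras. Each group had 3 libraries of polyadenylated RNA from this 1 line, and the labels do not say whether the libraries of a group came from separate cultures, so p-values measure only the spread between these libraries. The question is how the transcripts of the remodelling machinery stand when PRMT5 is inhibited. The values are bulk measurements, in which fewer cells of a type and less RNA per cell cannot be told apart, and they are gene totals that do not separate isoforms.

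As background, mammalian remodellers fall into families named for their ATPases. BAF complexes, built on SMARCA4 (BRG1) or SMARCA2 (BRM), open enhancers and promoters and exist in the canonical (ARID1A or ARID1B), polybromo (ARID2, PBRM1, BRD7) and non-canonical (BRD9) forms. ISWI complexes pair an ISWI ATPase, such as SMARCA5, with a large BAZ or BPTF subunit and space nucleosomes. The CHD4-based NuRD complex joins remodelling with histone deacetylation, and INO80 acts at promoters and replication forks. BRD2 and BRD3 belong to the BET family, which recruits the elongation machinery to acetylated chromatin and is the target of BET inhibitors. SMARCA4 and BRD9 are known dependencies of MLL-rearranged leukemia cells, and PRMT5 has been found bound to human BRG1 and BRM complexes.

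The libraries held 15551525, 11335948 and 14525098 reads in genes with the inhibitor, and 19197912, 19119995 and 15505127 with DMSO. All values below are normalized counts, that is, reads divided by a size factor for the library. The 8 myeloid markers looked for (Ptprc, Spi1, Cebpa, Itgam, Mpo, Csf1r, Fcgr3, Kit) were all present. None of the 5 T-cell, 5 erythroid and 5 stromal markers had a row in the table, and of 5 B-cell markers only Cd79b did, at 12.3 to 22.6 normalized counts with the inhibitor and 24.5 to 28.5 with DMSO. The summed myeloid markers came to 22430 to 22720 normalized counts with the inhibitor, against 14790 to 16220 with DMSO, but the markers moved in both directions. Itgam, Csf1r and Fcgr3 were 3.79-fold, 3.17-fold and 2.67-fold higher and Spi1 was 1.17-fold higher, whereas Mpo and Cebpa were 2.47-fold and 1.45-fold lower. The Mpo groups overlapped, at 407.6, 292.3 and 327.1 normalized counts with the inhibitor and 1438, 371.3 and 731.5 with DMSO. Ptprc and Kit did not pass. The part of these markers in the results below was not tested. Prmt5 itself, whose protein is the drug's target, had 2877, 2517 and 2130 normalized counts with the inhibitor and 2706, 3183 and 2463 with DMSO, so the groups overlapped (log2 fold change -0.15, adjusted p = 0.316).

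Among the 58 genes, 7 were higher and 15 were lower with the inhibitor at an adjusted p under 0.05 (limma-trend, Benjamini-Hochberg over all 11644 genes), and 36 did not pass. The called share of 37.9% lay below that of all genes, of which 46.5% were called, 23.6% as higher and 22.9% as lower. The 7 higher genes are 12.1% of the list, and the 15 lower genes are 25.9%. Counts per complex below are of small sets and are to be read beside the shares of all genes given here. The changes were mostly modest: 5 of the 58 were called with means at least 1.5-fold apart (22.2% of all genes were), and only Arid5a and Chd3 differed by 2-fold or more. The median log2 fold change was -0.10, against 0.00 over all genes, and the median size of the log2 fold change was 0.25, against 0.31. Groups of libraries did not overlap for 31 of the 58, and 56.0% of all genes showed no overlap. With a mean of at least 100 normalized counts as a filter, 50 of the genes remained in a fit that called 49.2% of 9100 genes, 5 of the 50 as higher and 14 as lower.

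**Figure D1:**
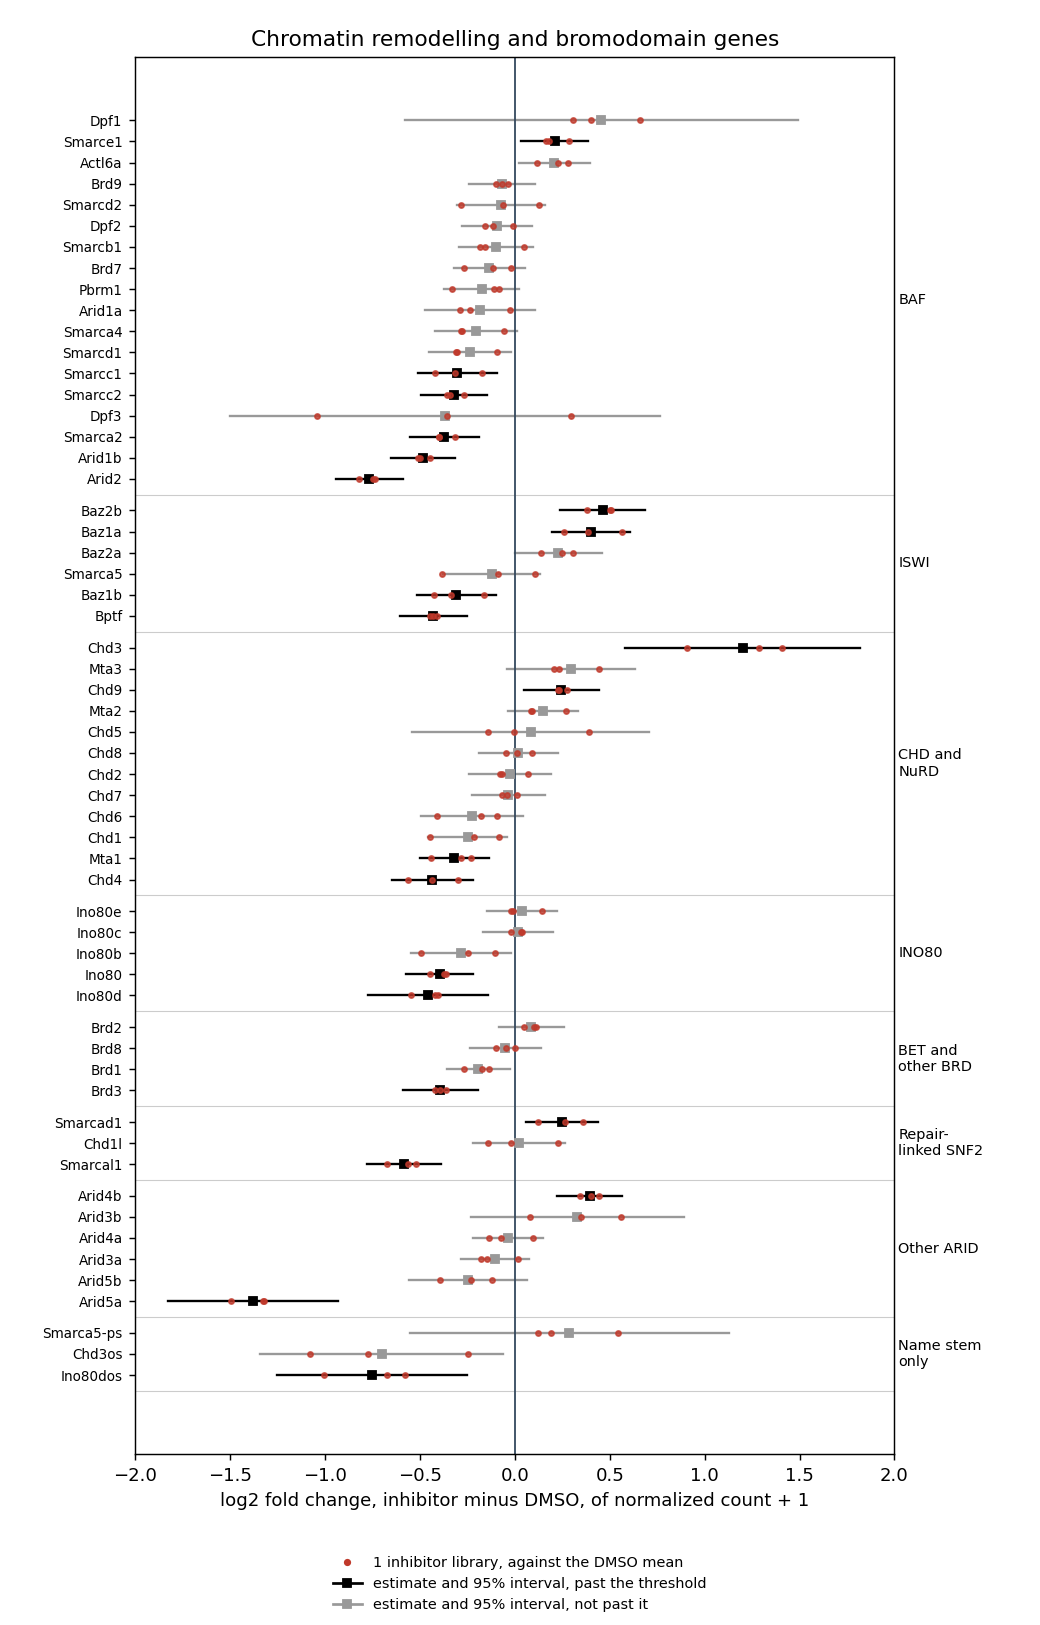
The horizontal axis is the log2 fold change, inhibitor minus DMSO, of the normalized count + 1 for 57 of the 58 genes, grouped by complex. Squares with bars are the estimate and its 95% interval, black where the adjusted p is under 0.05, and red points are the single inhibitor libraries against the DMSO mean. Arid5a and Arid2 lie farthest to the left and Chd3 farthest to the right, and most other estimates stay within 0.5 of zero.

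The 58 genes are long and well expressed. Their median level was 1386 normalized counts with the inhibitor and 1496 with DMSO, against 516 and 525 for all genes. Their exons together spanned a median of 7829 bases, against 4359, with 19 introns against 8, over a gene span of 49.7 kb against 22.1 kb, and a GC content of 51.2% against 49.9%. Per kilobase of exon, the highest members with the inhibitor were Mta2 at 1266 ± 93.0 normalized counts per kb with the inhibitor and 1141 ± 36.2 with DMSO, Chd4 at 1162 ± 107 and 1566 ± 40.0, and Baz1a at 1017 ± 110 and 767 ± 16.0 (SD, n = 3 each). Smarca5, Smarcd2, Smarca4 and Brd2 came next, at 692 to 787 with the inhibitor and 652 to 849 with DMSO. This order also depends on the annotated exon length, which is 4093 bases for Mta2 and 7826 for Brd2. Mta2 and Chd4 lay within their spread of each other with the inhibitor, whereas Chd4 was clearly first with DMSO. At the low end, Dpf1, Dpf3, Smarca5-ps, Arid3b, Chd3, Chd3os and Chd5 lay at 1.3 to 10.4 per kb with the inhibitor and 1.11 to 13.03 with DMSO.

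Of the 18 BAF genes, 1 was higher with the inhibitor (5.56%, against 23.6% of all genes), 5 were lower (27.8%, against 22.9%) and 12 did not pass. The lower genes were the ARID subunits Arid2 and Arid1b, the ATPase Smarca2 and the scaffold pair Smarcc1 and Smarcc2. Arid2 (chr15:96287518-96404992, plus strand, GENCODE M21 on mm10) encodes the subunit that defines the polybromo complex. It had 1485, 1575 and 1567 normalized counts with the inhibitor and 2463, 2604 and 2824 with DMSO. All inhibitor libraries were below all DMSO libraries, the mean was 1.71-fold lower, and the log2 fold change was -0.77 ± 0.08 (SE, adjusted p = 1.94e-05). Arid1b, one of the alternative ARID subunits of the canonical complex (chr17:4994332-5347656, plus strand), had 1802, 1740 and 1725 normalized counts with the inhibitor and 2524, 2317 and 2536 with DMSO, without overlap (1.40-fold lower, log2 fold change -0.49, SE 0.08, adjusted p = 0.000364). Its paralog Arid1a had 1835, 1906 and 2206 normalized counts with the inhibitor and 2059, 1929 and 2838 with DMSO. These groups overlapped, with the highest value of all in DMSO library 3, and the difference did not pass (log2 fold change -0.18, 95% interval -0.47 to 0.11, adjusted p = 0.278). Without that library the log2 fold change of Arid1a was -0.01.

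The ATPase gene Smarca2 had 679, 678 and 719.9 normalized counts with the inhibitor and 934, 844 and 913 with DMSO. It was below DMSO in all inhibitor libraries (1.3-fold lower, log2 fold change -0.37, SE 0.08, adjusted p = 0.00343). Smarca4, the more abundant ATPase, had 5164, 4429 and 4412 normalized counts with the inhibitor and 5649, 4823 and 5661 with DMSO. The groups overlapped and the difference did not pass (log2 fold change -0.20, 95% interval -0.42 to 0.01, adjusted p = 0.109), but it did pass without inhibitor library 1 (log2 fold change -0.28, adjusted p = 0.0385) and without DMSO library 2 (-0.28, 0.0382). The scaffolds that hold the core together were both lower. Smarcc2 had 1571, 1475 and 1490 normalized counts with the inhibitor and 1940, 1753 and 1980 with DMSO (log2 fold change -0.32, SE 0.08, adjusted p = 0.00660). Smarcc1 had 3046, 2755 and 2558 normalized counts with the inhibitor and 3677, 3102 and 3533 with DMSO (log2 fold change -0.30, SE 0.09, adjusted p = 0.0208). Neither gene's groups overlapped. The Smarcc1 call was lost without inhibitor library 2 or 3 or DMSO library 1 or 3, with log2 fold changes of -0.30 to -0.24 and adjusted p of 0.0660 to 0.0863, whereas that of Smarcc2 held with each library left out.

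The HMG-box subunit Smarce1 was the only BAF gene called higher. It had 3609, 3356 and 3321 normalized counts with the inhibitor and 3129, 2954 and 2807 with DMSO, without overlap (log2 fold change 0.21, SE 0.08, adjusted p = 0.0493). This call is at the edge of the threshold, and it was lost with any library other than inhibitor library 3 left out (log2 fold change 0.17 to 0.25, adjusted p 0.0561 to 0.186), with edgeR (0.0791), on TMM-scaled log2 CPM (0.0682) and with a mean of at least 100 normalized counts (0.0528). Actl6a, an actin-related subunit that INO80 also holds, had 2254, 2335 and 2082 normalized counts with the inhibitor and 2076, 1783 and 1922 with DMSO. Its inhibitor libraries were all higher than the DMSO libraries, but the difference did not pass (log2 fold change 0.21, 95% interval 0.02 to 0.39, adjusted p = 0.0657), except without inhibitor library 3 (0.25, adjusted p = 0.0403). Smarcd1 had 514.8, 443 and 446 normalized counts with the inhibitor and 590.3, 515.0 and 547 with DMSO. It was lower in every inhibitor library than in any DMSO library and did not pass (log2 fold change -0.24, 95% interval -0.45 to -0.02, adjusted p = 0.0718), but did without inhibitor library 1 (-0.31, adjusted p = 0.0329) and without DMSO library 2 (-0.28, 0.0494). Smarcd2, the paralog linked to granulocyte development, had 3051, 2676 and 2295 normalized counts with the inhibitor and 3031, 2635 and 2728 with DMSO, with overlapping groups (log2 fold change -0.07, 95% interval -0.30 to 0.16, adjusted p = 0.601).

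The remaining BAF genes did not pass. The polybromo subunit Pbrm1 averaged 3748 ± 341 normalized counts with the inhibitor and 4221 ± 209 with DMSO (log2 fold change -0.17), without overlap. The other polybromo subunit, Brd7, averaged 1755 ± 149 normalized counts with the inhibitor and 1922 ± 67.2 with DMSO (-0.13), with overlapping groups. The log2 fold change was -0.09 for the PHD-finger subunit Dpf2, -0.10 for the core subunit Smarcb1 and -0.07 for Brd9, the bromodomain subunit of the non-canonical complex, whose means were 808 ± 16.4 with the inhibitor and 847 ± 33.5 with DMSO (SD, n = 3 each). Dpf1 and Dpf3, best known from nerve and muscle, were near the floor of the table. Dpf1 had 9.19, 6.99 and 7.53 normalized counts with the inhibitor and 4.89, 3.23 and 9.82 with DMSO, and Dpf3 averaged 5.5 ± 2.93 normalized counts with the inhibitor and 7.21 ± 2.86 with DMSO. Their intervals run from -0.58 to 1.49 and from -1.5 to 0.76 on the log2 scale, so a difference of over 2-fold is not excluded by these reads.

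**Figure D2:**
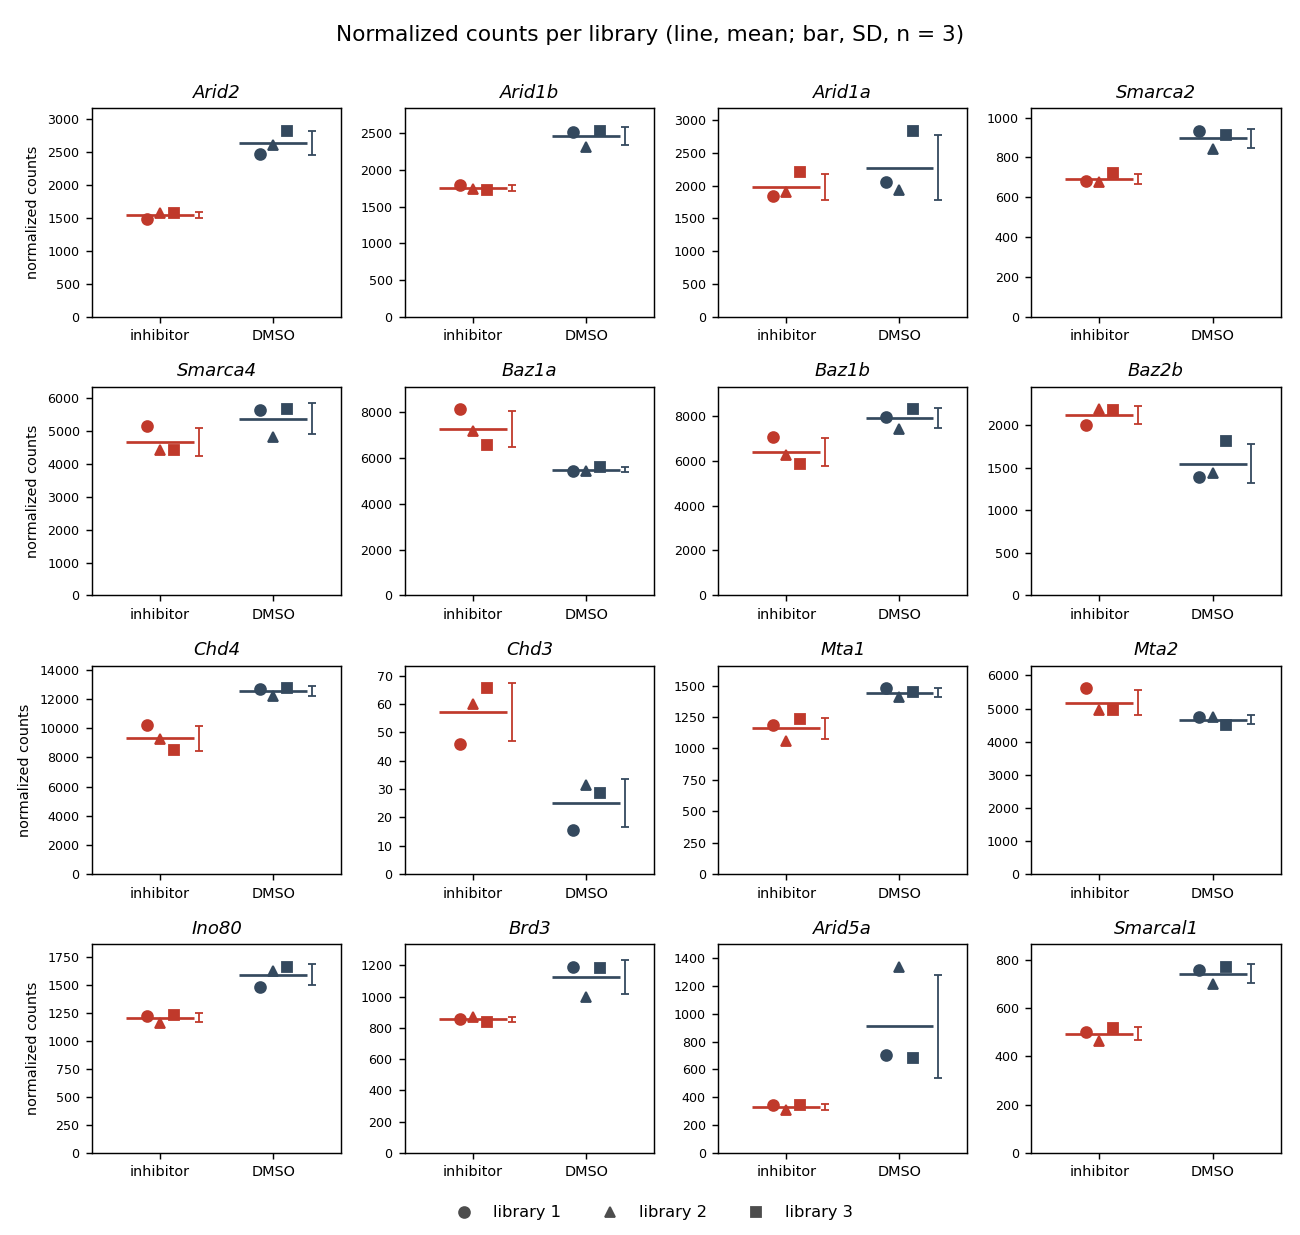
Normalized counts (vertical axes, each from 0) of 16 genes in the 3 inhibitor and the 3 DMSO libraries, with the group mean as a line and the SD as a bar. Markers give the library number. Arid2, Arid1b and Smarcal1 are separated with little spread, and Chd4 is separated with a wider spread among the inhibitor libraries (8485 to 10210). The Arid1a groups overlap, with DMSO library 3 the highest, and the Arid5a difference includes DMSO library 2 at 1338.

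Of the 6 ISWI genes, 2 were higher (33.3%, against 23.6% of all genes), 2 were lower (33.3%, against 22.9%) and 2 did not pass. In this small set, calls in both directions fell on genes of large partner subunits. Smarca5, the ATPase, had 7098, 6204 and 5062 normalized counts with the inhibitor and 6962, 6492 and 6357 with DMSO, with overlapping groups (log2 fold change -0.12, 95% interval -0.38 to 0.13, adjusted p = 0.412). Baz1a encodes ACF1, which with SMARCA5 forms a nucleosome spacing factor (chr12:54892989-55014348, minus strand). It had 8115, 7161 and 6559 normalized counts with the inhibitor and 5440, 5409 and 5621 with DMSO. Every inhibitor library was above every DMSO library (1.33-fold higher, log2 fold change 0.40, SE 0.09, adjusted p = 0.00453). Baz1b encodes WSTF, the partner in a SMARCA5 complex found at replication sites. It had 7045, 6234 and 5863 normalized counts with the inhibitor and 7958, 7420 and 8280 with DMSO, all lower with the inhibitor (1.24-fold lower, log2 fold change -0.31, SE 0.10, adjusted p = 0.0200). The Baz1b call was lost without inhibitor library 2 or 3 or DMSO library 1 or 3 (log2 fold change -0.30 to -0.25, adjusted p 0.0566 to 0.0825), and that of Baz1a held with each library left out.

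Baz2b, a bromodomain protein that can pair with ISWI ATPases, had 2004, 2186 and 2174 normalized counts with the inhibitor and 1389, 1443 and 1810 with DMSO. There was no overlap (1.37-fold higher, log2 fold change 0.46, SE 0.10, adjusted p = 0.00315), and the difference was larger without DMSO library 3 (0.58, adjusted p = 0.000637). Baz2a encodes TIP5, which with SMARCA5 silences ribosomal DNA. It had 1261, 1418 and 1366 normalized counts with the inhibitor and 1044, 1070 and 1353 with DMSO. DMSO library 3 lay within the inhibitor range, and the difference did not pass (log2 fold change 0.23, 95% interval 0.00 to 0.46, adjusted p = 0.0929). Without DMSO library 3 it did (0.35, adjusted p = 0.0158). Bptf, the large subunit of the nucleosome remodelling factor NURF and a reader of methylated histone H3 (chr11:107033081-107132127, minus strand), had 2303, 2277 and 2250 normalized counts with the inhibitor and 2964, 2905 and 3345 with DMSO. The inhibitor libraries lay within a narrow range below all DMSO libraries (1.35-fold lower, log2 fold change -0.43, SE 0.08, adjusted p = 0.00120).

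Of the 12 CHD and NuRD genes, 2 were higher and 2 lower (16.7% each, against 23.6% and 22.9% of all genes). The other 8 did not pass. Chd4, the main NuRD ATPase and 1 of the most abundant genes of the list (chr6:125095981-125130591, plus strand), had 10210, 9267 and 8485 normalized counts with the inhibitor and 12720, 12180 and 12760 with DMSO. All inhibitor libraries were below all DMSO libraries (1.35-fold lower, log2 fold change -0.43, SE 0.10, adjusted p = 0.00356). Its paralog Chd3 (chr11:69343273-69369406, minus strand) had 46.0, 60.1 and 65.7 normalized counts with the inhibitor and 15.5, 31.5 and 28.5 with DMSO. The groups did not overlap, and the mean was 2.28-fold higher with the inhibitor (log2 fold change 1.2, SE 0.28, adjusted p = 0.00456). Chd3 rests on few reads, 149 in the 3 inhibitor libraries and 87 in the 3 DMSO libraries, and DMSO library 1 was the lowest of all. Without that library the log2 fold change was 0.90 (adjusted p = 0.0139). Chd5, the third paralog and mainly a gene of the nervous system, averaged 99.2 ± 19.9 normalized counts with the inhibitor and 99.8 ± 48.6 with DMSO (log2 fold change 0.08, adjusted p = 0.830).

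The MTA proteins are the scaffolds that bring histone deacetylases into NuRD. Mta1 had 1185, 1063 and 1231 normalized counts with the inhibitor and 1481, 1407 and 1447 with DMSO. It was lower in all inhibitor libraries (1.25-fold lower, log2 fold change -0.32, SE 0.08, adjusted p = 0.00797). Mta2, the most abundant of the family, had 5620, 4970 and 4952 normalized counts with the inhibitor and 4753, 4757 and 4499 with DMSO. Its inhibitor libraries were all higher, by an amount that did not pass (log2 fold change 0.15, 95% interval -0.04 to 0.33, adjusted p = 0.173). Mta3 had 321, 277 and 271 normalized counts with the inhibitor and 198, 303 and 217 with DMSO. DMSO library 2 lay among the inhibitor libraries and the difference did not pass (log2 fold change 0.29, 95% interval -0.04 to 0.63, adjusted p = 0.137), whereas without DMSO library 2 it did (0.48, adjusted p = 0.00812).

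Among the other CHD ATPases, Chd9 had 1078, 1109 and 1076 normalized counts with the inhibitor and 875, 857 and 1032 with DMSO. Again the groups were separate (1.18-fold higher, log2 fold change 0.24, SE 0.09, adjusted p = 0.0430). That call was lost with any library other than DMSO library 3 left out (log2 fold change 0.19 to 0.25, adjusted p 0.0670 to 0.138), with edgeR (0.0687), with DESeq2 (0.0627) and on TMM-scaled log2 CPM (0.0644). Chd1, which binds methylated histone H3 at transcribed genes, had 2822, 2577 and 2197 normalized counts with the inhibitor and 3038, 2935 and 2998 with DMSO. It was lower in all inhibitor libraries but lay just outside the threshold (log2 fold change -0.25, 95% interval -0.46 to -0.04, adjusted p = 0.0508), and it passed with edgeR (0.0440), with DESeq2 (0.04999), on TMM-scaled log2 CPM (0.0354), with upper-quartile scaling (0.0415) and without inhibitor library 1 (-0.33, adjusted p = 0.0149). Chd2, Chd6, Chd7 and Chd8 did not pass, with log2 fold changes of -0.03, -0.23, -0.03 and 0.02 and means of 1237 to 2603 normalized counts with the inhibitor and 1270 to 2580 with DMSO. Of the exon length of Chd2, 19.3% overlaps other annotated genes, as does 16.4% of that of Ino80e, 12.7% of that of Smarcd1 and 11.6% of that of Actl6a, so part of their reads may belong to a neighbour. Overlap on the same strand is 18.4% for Chd2 and 0% for Ino80e, Smarcd1 and Actl6a. Whether the counting used strand is not given in the sources used here.

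Of the 5 INO80 genes, 2 were lower (40%, against 22.9% of all genes), none was higher (against 23.6%) and 3 did not pass. Ino80, the ATPase (chr2:119373042-119477687, minus strand), had 1222, 1161 and 1231 normalized counts with the inhibitor and 1481, 1619 and 1660 with DMSO. No inhibitor library reached the lowest DMSO library (1.32-fold lower, log2 fold change -0.40, SE 0.08, adjusted p = 0.00180). Ino80d, an accessory subunit, had 1372, 1513 and 1500 normalized counts with the inhibitor and 1834, 1645 and 2670 with DMSO. The groups did not overlap (log2 fold change -0.46, SE 0.15, adjusted p = 0.0224), but DMSO library 3 stood far above the others. Without it the log2 fold change was -0.25 and the call was lost (adjusted p = 0.0705), as it was without inhibitor library 1 (-0.41, 0.0744) or 2 (-0.48, 0.0593). Ino80b, another accessory subunit, had 282, 215 and 255 normalized counts with the inhibitor and 316, 304 and 289.6 with DMSO, lower in all inhibitor libraries without passing (log2 fold change -0.28, 95% interval -0.55 to -0.02, adjusted p = 0.0758), except without inhibitor library 1 (-0.37, 0.0348). Ino80c averaged 667 ± 14.5 normalized counts with the inhibitor and 659 ± 35.2 with DMSO, and Ino80e averaged 878 ± 57.1 with the inhibitor and 854 ± 21.3 with DMSO. Both pairs of groups overlapped, with log2 fold changes of 0.02 and 0.04.

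Of the 5 BET and other BRD genes, 1 was lower (20%, against 22.9% of all genes) and none was higher (against 23.6%). The other 4 did not pass. Brd3, a BET reader of acetylated histones (chr2:27445579-27507662, minus strand), had 854, 869.8 and 837 normalized counts with the inhibitor and 1191, 999 and 1183 with DMSO. The inhibitor libraries were close to each other and all lower (1.32-fold lower, log2 fold change -0.39, SE 0.09, adjusted p = 0.00389). Brd2, another BET gene, had 5509, 5272 and 5474 normalized counts with the inhibitor and 5048, 5237 and 5021 with DMSO, slightly higher in all inhibitor libraries without passing (log2 fold change 0.09, 95% interval -0.08 to 0.26, adjusted p = 0.385). Brd1, a scaffold of a histone acetyltransferase complex, had 2302, 2244 and 2101 normalized counts with the inhibitor and 2524, 2537 and 2527 with DMSO. It was lower in all inhibitor libraries and just outside the threshold (log2 fold change -0.19, 95% interval -0.36 to -0.03, adjusted p = 0.0553). It passed with edgeR (0.0397), on TMM-scaled log2 CPM (0.0338), with upper-quartile scaling (0.0439) and without inhibitor library 1 (-0.22, adjusted p = 0.0439). Brd8, a subunit of the TIP60 acetyltransferase complex, averaged 1975 ± 67.1 normalized counts with the inhibitor and 2047 ± 180 with DMSO, with overlapping groups.

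The symbol rule also takes in 3 SNF2-family ATPases that act in DNA repair. Of these, 1 was higher and 1 was lower (33.3% each, against 23.6% and 22.9% of all genes). Smarcal1, an annealing helicase at stalled replication forks (chr1:72583251-72633134, plus strand), had 502, 466 and 517 normalized counts with the inhibitor and 758, 699 and 772 with DMSO. All inhibitor libraries were lower (1.5-fold lower, log2 fold change -0.59, SE 0.09, adjusted p = 0.000281). Smarcad1, which acts in DNA end resection and in keeping silent chromatin, had 2165, 2307 and 1959 normalized counts with the inhibitor and 1796, 1895 and 1714 with DMSO. The inhibitor libraries were all higher (log2 fold change 0.25, SE 0.09, adjusted p = 0.0328), and the call was lost without inhibitor library 1 or 2 or DMSO library 1 or 3 (0.19 to 0.25, adjusted p 0.0655 to 0.147). Chd1l, a remodeller activated by poly(ADP-ribose), averaged 488 ± 64.9 normalized counts with the inhibitor and 478 ± 27.9 with DMSO, with overlapping groups.

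Of the 6 ARID genes outside BAF, 1 was higher and 1 was lower (16.7% each, against 23.6% and 22.9% of all genes). Arid5a, which encodes an ARID protein known in mouse macrophages for binding and stabilising cytokine mRNAs (chr1:36307733-36324029, plus strand), had 344, 306 and 345 normalized counts with the inhibitor and 706, 1338 and 683 with DMSO. The inhibitor libraries were close together and below all DMSO libraries (2.74-fold lower, log2 fold change -1.38, SE 0.20, adjusted p = 0.000231), the largest fall among the 58. DMSO library 2 stood far above the other DMSO libraries, and without it the log2 fold change was -1.07 (adjusted p = 2.30e-06). Arid4b, a subunit of the SIN3 deacetylase complex (chr13:14063232-14199603, plus strand), had 1589, 1703 and 1653 normalized counts with the inhibitor and 1247, 1201 and 1315 with DMSO. The groups did not overlap (1.31-fold higher, log2 fold change 0.39, SE 0.08, adjusted p = 0.00155). Its paralog Arid4a averaged 1329 ± 111 normalized counts with the inhibitor and 1361 ± 24.0 with DMSO and did not pass (log2 fold change -0.04).

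Arid5b, a partner of a histone demethylase, had 124, 138 and 149.6 normalized counts with the inhibitor and 143, 166 and 182 with DMSO (log2 fold change -0.25, 95% interval -0.56 to 0.06, adjusted p = 0.173). Arid3a, first described as a B-cell factor, had 2753, 2461 and 2408 normalized counts with the inhibitor and 2697, 2814 and 2669 with DMSO (log2 fold change -0.10, 95% interval -0.28 to 0.07, adjusted p = 0.315). Arid3b had 49.0, 40.6 and 57.0 normalized counts with the inhibitor and 28.5, 54.1 and 36.3 with DMSO (log2 fold change 0.33, 95% interval -0.23 to 0.89, adjusted p = 0.312). In each of these 3 genes the groups overlapped and the difference did not pass.

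The promoters of Arid5a, Arid4b and Smarcal1 are shown as examples from the called genes. All 3 windows hold the NF-Y box, CCAAT, although 1 gene was higher and 2 were lower. The window of Baz2b, a gene called higher, also holds 1 match and is not printed here. Each window runs from 250 bases before to 50 bases after the annotated start, 5′ to 3′ on the gene's strand, from RefSeq on GRCm38.p6. Capitals mark CCAAT or its reverse complement ATTGG.
Arid5a (chr1:36307483-36307782, plus strand): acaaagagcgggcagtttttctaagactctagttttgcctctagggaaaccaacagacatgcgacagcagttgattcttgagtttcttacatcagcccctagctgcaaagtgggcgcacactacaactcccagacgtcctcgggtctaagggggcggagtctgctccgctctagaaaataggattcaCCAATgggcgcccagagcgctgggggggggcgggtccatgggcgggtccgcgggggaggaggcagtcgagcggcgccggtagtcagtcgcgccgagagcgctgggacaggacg
Arid4b (chr13:14063534-14063833, plus strand): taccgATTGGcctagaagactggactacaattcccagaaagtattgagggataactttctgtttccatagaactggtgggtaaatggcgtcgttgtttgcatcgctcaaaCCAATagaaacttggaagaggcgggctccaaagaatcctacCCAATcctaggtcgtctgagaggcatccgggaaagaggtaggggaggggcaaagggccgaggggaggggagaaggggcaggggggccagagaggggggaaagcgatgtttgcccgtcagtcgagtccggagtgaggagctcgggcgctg
Smarcal1 (chr1:72583001-72583300, plus strand): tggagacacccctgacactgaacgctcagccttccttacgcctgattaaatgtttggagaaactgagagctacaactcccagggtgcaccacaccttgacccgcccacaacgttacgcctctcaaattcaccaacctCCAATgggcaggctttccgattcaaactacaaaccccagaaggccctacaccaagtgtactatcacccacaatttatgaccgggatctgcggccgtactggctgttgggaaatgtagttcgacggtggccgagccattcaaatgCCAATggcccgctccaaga
The Arid4b window holds 3 such matches, that of Smarcal1 2 and that of Arid5a 1.
A window was found for 42 of the 58 genes, 53 windows in all, with a median GC content of 65.7%, against 52.7% over all 32851 windows. CCAAT on either strand was in 16 of the 53 (30.2%), against 37.4% of all windows. By gene, it was in 3 of the 4 higher genes with a window, 5 of the 13 lower genes and 7 of the 25 that did not pass. The E-box CACGTG, searched likewise, was in 3 of the 53 windows (5.66%), against 7.15% of all windows. The ETS motif CCGGAAG was in 9 (17.0%), against 8.86%. The E2F form TTTCCCGC was in 3 (5.66%), against 1.07%, and TTTGGCGC was in none, against 0.514%. By gene, CCGGAAG was in none of the 4 higher genes, 2 of the 13 lower and 6 of the 25 that did not pass. All 3 genes with TTTCCCGC were among the 25 that did not pass. CACGTG was in none of the higher genes, 1 lower gene and 2 that did not pass. None of these motifs contains another. Matches are descriptions of letters, and no binding was measured here.

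The 3 genes that share only the name stem had low counts. Ino80dos, transcribed opposite the start of Ino80d, had 39.8, 50.3 and 53.8 normalized counts with the inhibitor and 75.0, 63.0 and 112 with DMSO. The groups did not overlap (log2 fold change -0.75, SE 0.23, adjusted p = 0.0185), and DMSO library 3 was again the highest. It did not pass when DMSO library 3 was left out (-0.52, adjusted p = 0.0955), nor without inhibitor library 1 (-0.63, 0.0669). Exons of other genes, among them Ino80d, overlap 31.9% of its exon length, and 0% on the same strand. Since the strand setting of the counting is not given in the sources used here, reads of Ino80dos cannot be told from theirs with certainty. Chd3os had 12.3, 15.4 and 22.6 normalized counts with the inhibitor and 27.7, 29.1 and 24.6 with DMSO. It was lower in all inhibitor libraries, opposite in sign to Chd3, and did not pass (log2 fold change -0.70, 95% interval -1.34 to -0.06, adjusted p = 0.0689), except without inhibitor library 3 (-0.93, adjusted p = 0.0293). Its exons do not overlap those of Chd3. Smarca5-ps, a pseudogene copy of Smarca5 whose reads may come from its parent, averaged 11.7 ± 2.04 normalized counts with the inhibitor and 9.69 ± 3.68 with DMSO.

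Related subunits were also grouped into sets, and the members of each set were expressed as a share of their summed level per kilobase of exon. These sets were chosen after the data had been seen, and the shares are given without a test. Arid2 made up 31.4%, 32.5% and 30.7% of the BAF ARID transcripts (Arid1a, Arid1b, Arid2) in the inhibitor libraries, against 37.7%, 40.8% and 37.0% in the DMSO libraries. Arid1a made up 36.2%, 36.8% and 40.5% with the inhibitor, against 29.5%, 28.3% and 34.8% with DMSO. Arid1b kept an average share of 30.6% with the inhibitor and 30.7% with DMSO. The ARID set thus held relatively more Arid1a and less Arid2 with the inhibitor, while its summed level was lower, at 456 ± 17.5 normalized counts per kb with the inhibitor and 638 ± 63.8 with DMSO (SD, n = 3 each).

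Among the BAZ genes, Baz1a held 60.3%, 58.4% and 57.4% of the sum in the inhibitor libraries, against 50.04%, 51.1% and 48.5% in the DMSO libraries. Baz1b held 27.4%, 26.6% and 26.9% with the inhibitor, against 38.4%, 36.7% and 37.4% with DMSO. No library of one group came near the other for either gene. Of the MTA scaffolds, Mta1 made up 22.1% ± 1.61 with the inhibitor and 28.2% ± 0.99 with DMSO, and Mta2 made up 74.7% ± 1.49 and 69.1% ± 0.57 (SD, n = 3 each). The MTA total was 1694 ± 108 normalized counts per kb with the inhibitor and 1651 ± 39.2 with DMSO.

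Other sets kept their composition more closely. Smarcc1 held 56.6% ± 1.54 of the SMARCC sum with the inhibitor and 56.3% ± 0.92 with DMSO, while that sum was 628 ± 39.5 and 779.5 ± 59.0 normalized counts per kb. Smarca2 was 6.34% ± 0.64 of the BAF ATPase sum with the inhibitor and 7.05% ± 0.27 with DMSO, and Smarca4 supplied between 92.7% and 94.4% of it in every library. The NuRD ATPase sum, of which Chd4 supplied 98.5% with the inhibitor and 99.2% with DMSO, was 1179 ± 104 normalized counts per kb with the inhibitor and 1579 ± 34.8 with DMSO. Chd3, although higher, was 0.584% of that sum with the inhibitor and 0.189% with DMSO.

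**Figure D3:**
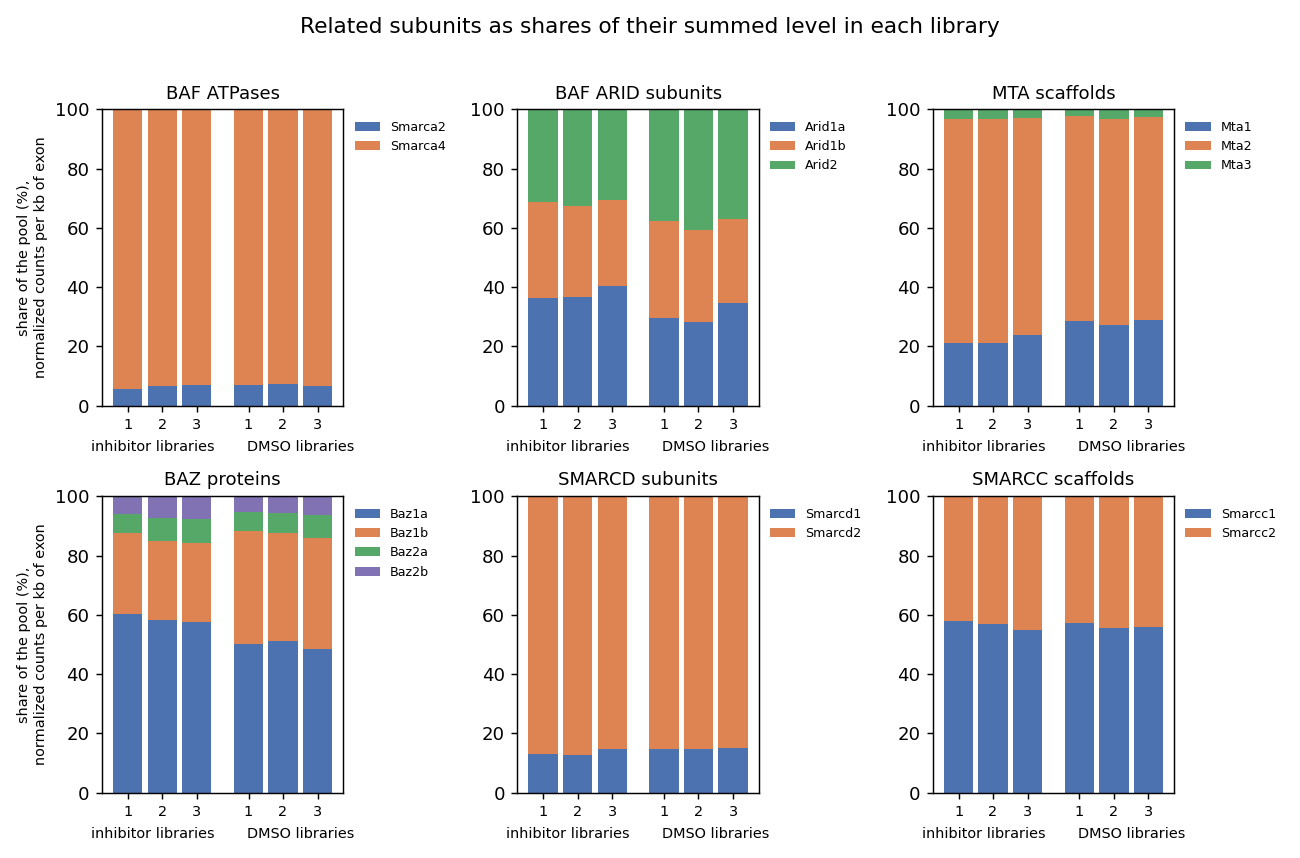
Stacked bars give, for each of 6 sets of related subunits, the share (%) of each gene in the set's summed normalized counts per kb of exon, in the 3 inhibitor libraries (left) and the 3 DMSO libraries (right). Arid2, Baz1b and Mta1 take a smaller share in every inhibitor library than in any DMSO library, and the SMARCC shares overlap.

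The ratio of 2 paralogs within a library does not depend on how libraries are scaled, and 8 pairs were compared by an exact permutation test, two-sided, on the log2 ratio, of which 6 are given here. With 3 libraries against 3 the smallest possible p is 0.1, so no pair could pass a threshold of 0.05. Among these 6, the groups were apart for Chd3/Chd4 and Smarcd2/Smarcd1, each with an exact permutation p of 0.1 (0.267 after Benjamini-Hochberg adjustment over the 8). The Chd3/Chd4 log2 ratio was -7.36 ± 0.40 with the inhibitor and -9.03 ± 0.58 with DMSO, a difference of 1.67. The Smarcd2/Smarcd1 log2 ratio was 2.51 ± 0.13 with the inhibitor and 2.35 ± 0.02 with DMSO (SD, n = 3 each), a difference of 0.16. The other 4 pairs overlapped, with differences of -0.17 for Smarca2/Smarca4 (p = 0.2, exact permutation test), -0.30 for Arid1b/Arid1a (0.3), 0.15 for Mta3/Mta2 (0.5) and -0.02 for Smarcc2/Smarcc1 (0.9).

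Single libraries weighed on some of these genes. DMSO library 3 was the highest of its group for 26 of the 58 genes (44.8%), against 28.3% of all genes, and it exceeded both other DMSO libraries by at least 20% for 9 of the 58, among them Arid1a, Baz2a, Baz2b, Chd6, Chd8, Dpf1, Ino80d and Ino80dos, against 8.38% of all genes. DMSO library 2 was the lowest of its group for 30 (51.7%), against 37.1% of all genes, but stood at least 20% above both others for Arid3b, Arid5a, Chd5, Dpf3, Mta3 and Smarca5-ps, 6 of the 58, near the share among all genes (10.8%). In the inhibitor group, library 1 was the highest for 27 (46.6%, against 35.8% of all genes) and library 3 the lowest for 27 (46.6%, against 37.8%). With 1 library left out at a time, 4 to 7 genes were called higher and 11 to 18 lower. The higher count was 4 without inhibitor library 1, without inhibitor library 2 and without DMSO library 1, and the lower count was 11 without DMSO library 3. Of the 22 called genes, 15 kept their call in every one of 14 alternative fits in which they were tested: Arid4b, Baz1a, Baz2b and Chd3 on the higher side and 11 on the lower side (Arid1b, Arid2, Arid5a, Bptf, Brd3, Chd4, Ino80, Mta1, Smarca2, Smarcal1 and Smarcc2).

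**Figure D4:**
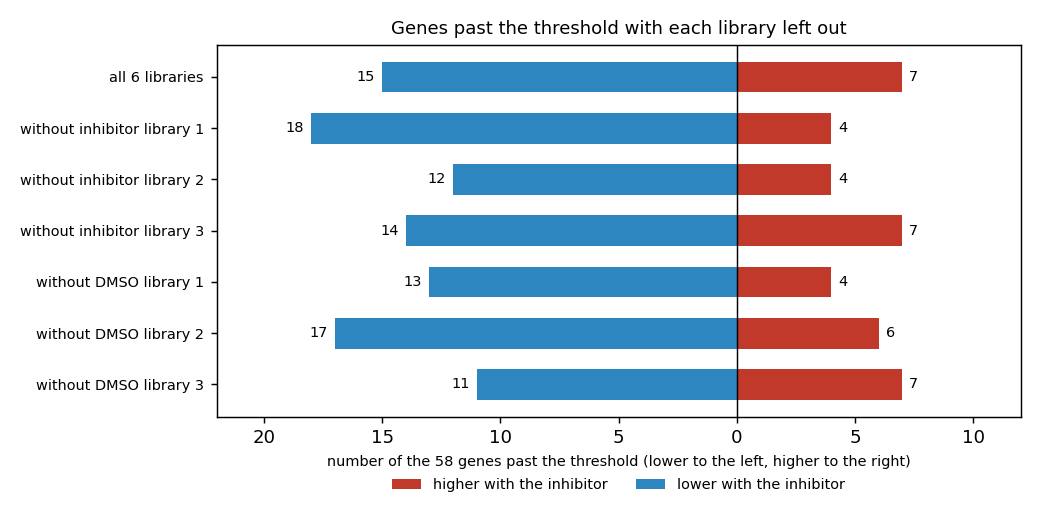
Bars give the number of the 58 genes past the threshold with all 6 libraries and with each library left out, lower with the inhibitor to the left and higher to the right. The lower count ranges from 11 to 18 and the higher count from 4 to 7, and the lower genes outnumber the higher in every row.

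Partner genes that the symbols do not cover were counted from lists of known subunits and relatives. Of 78 such genes in the table, 7 were higher and 19 were lower (33.3% called, against 46.5% of all genes), with a median log2 fold change of -0.09. Of 9 BAF partners, 5 were lower (55.6%, against 22.9% of all genes) and none was higher (against 23.6% of all genes). Bcl7c, an accessory subunit, averaged 243 ± 13.8 normalized counts with the inhibitor and 531 ± 11.3 with DMSO (log2 fold change -1.13, SE 0.10, adjusted p = 4.35e-06). Gltscr1l, a subunit of the non-canonical complex, averaged 505 ± 29.3 normalized counts with the inhibitor and 831 ± 17.1 with DMSO (log2 fold change -0.72, SE 0.09, adjusted p = 5.03e-05). Bcl7a and Ss18 were also lower, with log2 fold changes of -0.68 and -0.41 and adjusted p of 0.000237 and 0.000904.

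Of 9 NuRD partners, the deacetylase Hdac1 was higher (log2 fold change 0.25, adjusted p = 0.0281) and the histone chaperone Rbbp7 was lower (-0.27, adjusted p = 0.0362). Each is 11.1% of the set, against 23.6% of all genes called higher and 22.9% called lower. Hdac1 lost its call without inhibitor library 1 or 2 or DMSO library 2 or 3 (0.20 to 0.25, adjusted p 0.0574 to 0.113), and Rbbp7 without inhibitor library 2 or 3 or DMSO library 1 or 3 (-0.29 to -0.19, 0.0662 to 0.138). Of 24 INO80, SRCAP and TIP60 partners, 2 were higher and 3 were lower. The TIP60 reader Ing3 averaged 417 ± 51.2 normalized counts with the inhibitor and 590.3 ± 21.6 with DMSO (log2 fold change -0.51, SE 0.11, adjusted p = 0.00211), and the SRCAP and TIP60 subunit Dmap1 averaged 451 ± 37.0 normalized counts with the inhibitor and 348 ± 15.2 with DMSO (log2 fold change 0.37, SE 0.10, adjusted p = 0.0104). The TIP60 scaffold Epc2 and the INO80 subunit Tfpt had log2 fold changes of -0.26 and 0.32 (adjusted p = 0.0274 and 0.0302). Epc2 lost its call without inhibitor library 2 or 3 or DMSO library 1 or 2 (-0.28 to -0.21, adjusted p 0.0503 to 0.0921), and Tfpt did with DESeq2 (0.0701) and with any library other than DMSO library 2 left out (0.29 to 0.35, 0.0503 to 0.0993).

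Of 13 ISWI partners and other SNF2 ATPases, 5 were lower (38.5%, against 22.9% of all genes) and none was higher (against 23.6% of all genes). The recombination ATPase Rad54l averaged 536 ± 12.9 normalized counts with the inhibitor and 859.9 ± 87.6 with DMSO (log2 fold change -0.68, SE 0.09, adjusted p = 0.000159). The fork-remodelling ATPase Hltf, the transcription termination factor Ttf2 and the transcription-coupled repair factor Ercc6 had log2 fold changes of -0.45, -0.35 and -0.35 (adjusted p = 0.000852, 0.00531 and 0.00626). Of 23 other bromodomain genes, 4 were higher (17.4%, against 23.6% of all genes) and 5 were lower (21.7%, against 22.9%). Trim66, a tripartite motif cofactor, averaged 182 ± 9.80 normalized counts with the inhibitor and 72.2 ± 6.07 with DMSO (log2 fold change 1.32, SE 0.14, adjusted p = 2.11e-05). Taf1, the largest TFIID subunit, averaged 1408 ± 17.4 normalized counts with the inhibitor and 2287 ± 126 with DMSO (log2 fold change -0.70, SE 0.08, adjusted p = 2.88e-05). Atad2, an AAA ATPase with a bromodomain, averaged 4602 ± 493 normalized counts with the inhibitor and 6952 ± 129 with DMSO, with a log2 fold change of -0.60, and Trim33 had one of -0.49 (adjusted p = 0.000324 and 0.00116).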

How the data were processed

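Polyadenylated RNA was made into stranded libraries per the labels' protocols, 3 with EPZ015666 and 3 with DMSO, grouped and numbered by their titles. Per the submitters' processing notes, CASAVA 1.8.2, TopHat2 2.0.10, HTSeq 0.6.0, DESeq 1.16.0 and the mm10 build were used. Which annotation was counted, whether strand was used and how multiply matching reads were handled is not given in the sources used here. The authors deposited 1 table of normalized signal, that is, reads per gene over each library's own size factor (0.715 to 1.24). In every library 100% of values were whole multiples of 1 step (tolerance 1e-06), so whole reads were recovered, 11335948 to 19197912 per library. Each gene had at least 10 reads in its highest library. Libraries of a group differed beyond sampling noise (chi-square per degree of freedom 9.29 to 20.5), so none was treated as a duplicate.

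Groups were compared over 11644 genes with two-sided limma-trend tests of log2(normalized count + 1), run in limma 3.58.1 under R 4.3.3, with Benjamini-Hochberg adjustment over all genes, a threshold of 0.05 and 4 residual degrees of freedom. The pseudocount of 1 understates changes of low genes. The scripts were tested on simulated data. Folds are ratios of group means. Same-numbered libraries deviated together with r = 0.165, 0.0499 and 0.205, and differently numbered ones with r of -0.159 to -0.00278. The labels name no pairs, so the numbers were not taken as pairs in the main fit. Alternatives were edgeR 4.0.16 and DESeq2 1.42.0 on the recovered reads, upper-quartile scaling, log2 CPM with TMM factors, pseudocounts of 0.5 and 5, a mean of at least 100, a replicate block and leaving out each library. The members, partner lists and tests were chosen with earlier results of these data known. Full values are given for the 3 genes with the smallest adjusted p per direction and complex and for the paralog pairs, and for at most 4 called genes per partner list. One gene of the list is counted but not reported here by name. Bcl11b, Cecr2 and Brdt, also in those lists, had no row in the table and so were not analysed here. Exon lengths, positions and GC content come from GENCODE M21, matched by symbol for 99.1% of genes. Levels per kb, and the shares made from them, use the union of annotated exons. They therefore depend on how much exon is annotated for each gene as well as on its reads.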

Additional observations from a re-analysis of the deposited data

How the results depend on the processing

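The 58 genes gave 7 higher and 15 lower calls, and no called gene changed direction in any of 14 alternatives. They gave 5 higher and 17 lower with edgeR and on TMM-scaled log2 CPM, 6 and 16 with DESeq2, 7 and 17 with upper-quartile scaling, 7 and 15 with a pseudocount of 0.5 or 5, and 5 and 14 with a mean of at least 100. Leaving out each library gave 4 to 7 higher and 11 to 18 lower. All genes called numbered 4145 to 5346 then, in place of 5418, and 4999 to 5462 with the other tools, scalings and pseudocounts. Of the 22 called genes, 7 lost their call in at least 1 alternative (Baz1b, Chd9, Ino80d, Ino80dos, Smarcad1, Smarcc1, Smarce1), and 11 uncalled genes gained one in at least 1. The partner genes gave 7 higher and 19 lower, and with each library left out 4 to 7 and 15 to 22. The fewest higher partners, 4, came without inhibitor library 2. Each fit with a library left out also holds fewer libraries, and the cause of these differences was not tested. Paralog ratios kept their direction and their p with a pseudocount of 1.

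With the replicate number as a block, 8 genes were higher and 18 lower, and 5932 of all genes were called. No call was lost, and Baz2a, Chd1, Chd6 and Smarcd1 gained one. The partner genes then gave 8 and 23. Each library correlated best with its own number, a hint from the data and not from the design.

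With 3 libraries a group, the smallest called difference had a log2 fold change of 0.21 (Smarce1). Low genes (Chd3, Dpf1, Dpf3, Arid3b, Smarca5-ps) rest on few reads, gene totals do not show isoforms, and the recovered reads cannot show how overlapping genes and copies were counted.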
